A study of Mus musculus with 15 samples.

Results

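The urea cycle and the breakdown of amino acids in periportal hepatocytes were followed through 10 genes chosen by name. These were the urea cycle enzymes Cps1, Otc, Ass1, Asl and Arg1 and the amino acid catabolic enzymes Hal, Sds, Gls2, Tat and Tdo2. Their transcripts were summed per gene symbol. They make up 10 of 35540 gene symbols in the series, and all 10 were among the 13916 genes with enough counts to be tested. Bulk RNA had been sequenced from mouse liver in 15 libraries, 5 from wild-type mice (WT), 5 from mice with the C247S change in the thioredoxin-interacting protein TXNIP (C247S KI) and 5 from Txnip knockout mice (KO). All mice had received a high-fat diet for 8 weeks, so no group shows the liver on another diet. The C247S change removes a cysteine with which TXNIP forms a disulfide with thioredoxin, and the series' title asks whether that covalent bond is required for the liver's insulin resistance under the diet. Age, sex, strain, the hour at which livers were taken and the tissue reach of the knockout are not given in the labels. Nor do the labels say that libraries and animals correspond, so a p-value here refers to the spread between libraries only. Each sample title also opens with a number that the labels do not explain, apart from the replicate number. All KO libraries have lower numbers than all WT and C247S KI libraries, and the WT numbers lie within the C247S KI range. Genotype and whatever these numbers mark therefore cannot be told apart in the comparisons with KO, and the part of the latter was not tested.

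The urea cycle turns ammonia, which is toxic, into urea. Cps1 and Otc act in the mitochondria and make carbamoyl phosphate and citrulline, and Ass1, Asl and Arg1 act in the cytosol and make argininosuccinate, arginine and finally urea. The catabolic enzymes feed the cycle or clear amino acids: Hal removes ammonia from histidine, Sds turns serine into pyruvate and ammonia, Gls2 releases ammonia from glutamine, Tat begins the breakdown of tyrosine and Tdo2 that of tryptophan. Most of these enzymes are concentrated in the hepatocytes around the portal vein, and glucagon, glucocorticoids and dietary protein are known to raise them in liver.

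The label check came first. Txnip was at 222 ± 56.2 CPM (counts per 1000000 counts of a library, scaled by TMM factors, which correct for differences in library composition) in WT livers, at 192 ± 65.7 in C247S KI livers and at 99.0 ± 24.9 in KO livers (SD, n = 5 each). Transcripts of Txnip were thus reduced and still present in the KO libraries. The libraries held 18047577 to 23379940 estimated counts, and counts of the 10 enzymes ran from 3057 for Hal to 115083 for Ass1, so counting error was small beside the spread between libraries. Defining hepatocyte genes were abundant in all libraries, with 6 of 7 listed markers in the table. Their summed level was 82917 to 101350 CPM in WT libraries, while C247S KI libraries held 71820 to 117511 and KO libraries 48418 to 70745. Kidney tubule markers were near 0 (at most 0.0798 CPM in sum, with Slc12a1 and Kap at 0 in all 15 libraries). Gut epithelium markers, of which 1 of 4 had enough counts to be tested, summed to 99.6 to 178 CPM in WT libraries. Their sums were 65.4 to 109 CPM in C247S KI and 66.8 to 119 in KO, with Cdx1 at 0 in all 15 libraries. The source of these transcripts was not tested. In bulk RNA, fewer cells of a type and less RNA per cell cannot be told apart.

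Promoter sequence is shown for 3 of the enzymes, Otc and Ass1 of the cycle and Hal, the enzyme with the lowest p between C247S KI and WT. The RefSeq table on GRCm38.p6 held 5 of the 10 genes. These 3 were shown because each had a single plus-strand entry that held the whole window, not for their levels. Each sequence is the 150 bases directly before the earliest start in the annotations used, on the plus strand, 5′ to 3′. For Otc that start lies upstream of the gene start of 10252305 given below, so the bases next to the latter are not covered. Capitals mark matches to the letters TATAA of a TATA box, to a CCAAT box or to the C/EBP-type motif TTGCNNAA. Each was searched on both strands, as were the letters TGACG of a cAMP response element, and TATAA and its reverse complement share letters.
Otc, chrX:10252080-10252229: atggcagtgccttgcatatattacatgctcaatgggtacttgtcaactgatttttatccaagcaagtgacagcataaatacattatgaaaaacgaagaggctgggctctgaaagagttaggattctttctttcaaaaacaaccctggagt
Ass1, chr2:31470057-31470206: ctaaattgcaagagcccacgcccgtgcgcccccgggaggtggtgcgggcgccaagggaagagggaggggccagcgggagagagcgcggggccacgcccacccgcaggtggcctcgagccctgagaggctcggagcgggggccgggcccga
Hal, chr10:93488618-93488767: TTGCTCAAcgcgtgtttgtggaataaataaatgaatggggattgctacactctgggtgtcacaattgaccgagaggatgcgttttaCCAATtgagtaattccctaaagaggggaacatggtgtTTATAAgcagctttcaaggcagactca

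The Hal window held 1 TTGCNNAA, 1 CCAAT and TATAA, the last on both strands at the same place. None of the 4 motifs was found in the Otc or Ass1 window. Of 32851 promoters in the table, 14.2% held TATAA in the same 150 bases, 24.5% CCAAT, 5.5% TTGCNNAA and 13.3% TGACG. A match describes letters in this window and was not tested as a binding site.

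The 10 enzymes belong to the most abundant transcripts of these livers. Per kilobase of transcript and averaged over all 15 libraries, Ass1 ranked 44 of 13916 genes, Tat 83, Arg1 101 and Tdo2 113, and the others followed down to rank 545 for Otc and 1049 for Hal. WT levels per kilobase were 2393 CPM for Ass1, 912 for Arg1, 870 for Tat, 861 for Tdo2, 476 for Cps1, 465 for Asl and 452 for Sds. Gls2 (166), Otc (155) and Hal (74.5) were lower. In that order, the WT libraries of neighbours did not overlap at 4 steps, from Ass1 to Arg1, Tdo2 to Cps1, Sds to Gls2 and Otc to Hal. The ranges of the other neighbours overlapped. In KO livers the Sds libraries lay below the Asl libraries with no overlap, which was not so in WT or C247S KI, and Sds and Gls2 overlapped.

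Most of the counts came from the main coding transcript for Cps1 (100%, a single transcript), Ass1 (99.8%), Arg1 (99.7%), Tat (99.6%), Otc (96.8%) and Sds (94.4%). Asl divided between Asl-202 (42.6%) and Asl-205 (38.3%), both coding. Hal had 60.0% in the coding Hal-202, 23.2% in Hal-201, annotated for nonsense-mediated decay, and 16.7% in a processed transcript. Gls2 had 60.2% in the coding Gls2-201 and 15.7% in a transcript with a retained intron. Tdo2 had 63.7% in Tdo2-201 and 26.3% in Tdo2-204, both coding. The share of Hal-202 lay between 53.4% and 64.9% in WT libraries, 52.5% and 67.4% in those of C247S KI and 57.3% and 63.2% in those of KO, so the groups overlapped.

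No member of either set passed the test in any of the 3 comparisons. With edgeR's quasi-likelihood test at a Benjamini-Hochberg adjusted p below 0.05 over all 13916 genes, 0 of 10 were called in C247S KI against WT, where 0.0862% of all genes were called (0.0647% higher and 0.0216% lower). In KO against WT 0 of 10 were called beside 6.75% of all genes, and in KO against C247S KI 0 of 10 beside 10.3%. At an unadjusted p under 0.05 there was 1 enzyme in each comparison: Hal in C247S KI against WT and Sds in both comparisons of KO. Of all 13916 genes tested, 1371 had such a p in C247S KI against WT, 3239 in KO against WT and 3754 in KO against C247S KI. DESeq2 called 1 enzyme, Sds in KO against WT, where it also called more of all genes than edgeR (given further on), and limma-voom called 0. For all 10 enzymes the libraries of the compared groups overlapped in each comparison. The share of all tested genes with such overlap was not computed, so the overlap is not read as a trait of these enzymes. Both comparisons with KO share its libraries, as both comparisons with WT share those of WT.

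**Figure D1:**
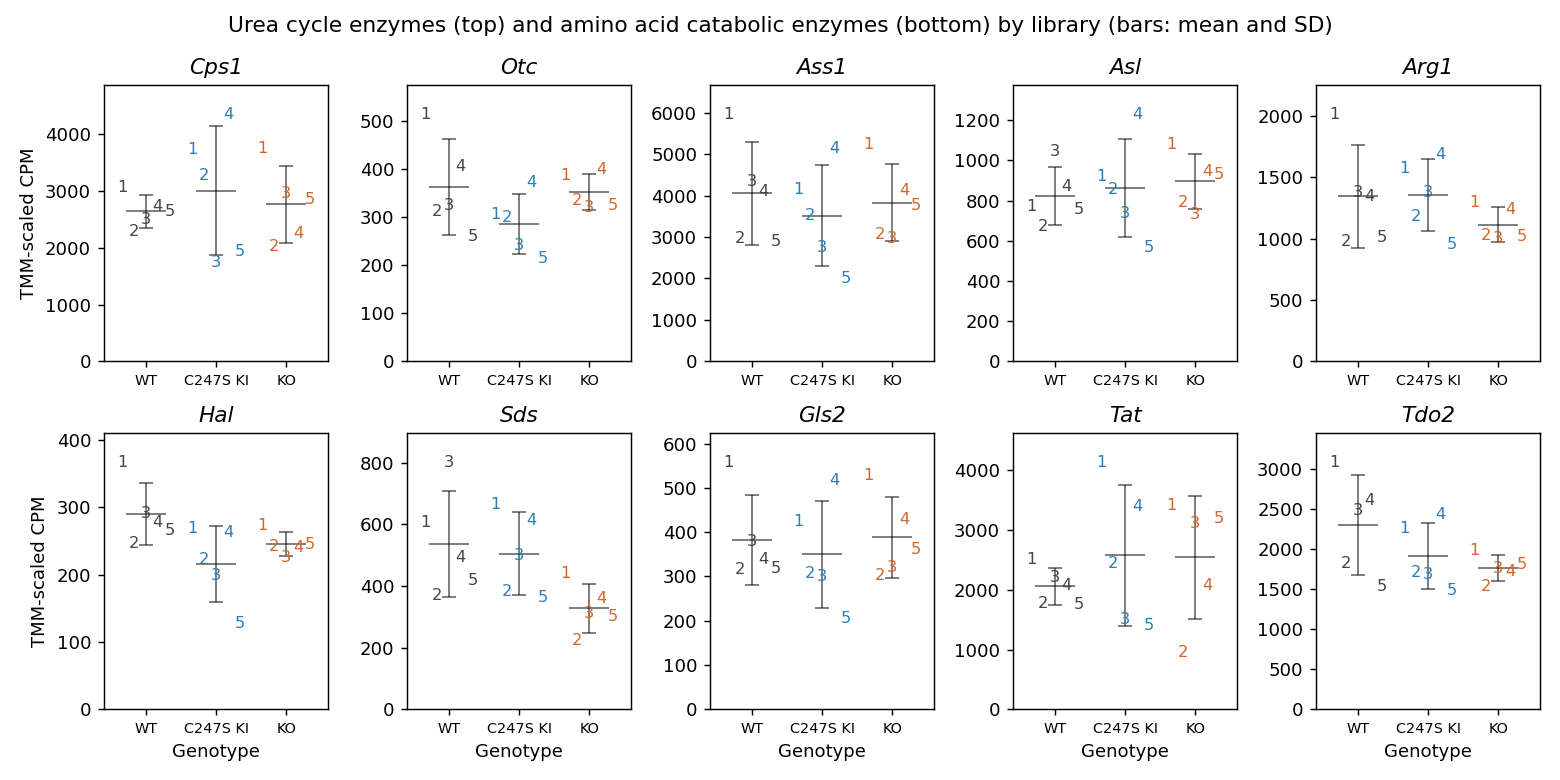
Level of each enzyme in TMM-scaled CPM (vertical axes, from 0) by genotype (horizontal axes); digits are replicate numbers of single libraries and bars are the mean and SD of 5. The groups overlap in every panel, and the KO libraries of Sds, 225 to 440 CPM, sit lowest of the 3 groups.

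Cps1 (ENSMUSG00000025991, GRCm38 chromosome 1, 67123026 to 67231259), which catalyses the first and rate-limiting step of the cycle, stayed near the same mean in the 3 groups. Its WT libraries 1 to 5 were at 3060, 2288, 2493, 2732 and 2644 CPM. Libraries 1 to 5 of C247S KI were at 3732, 3273, 1741, 4346 and 1940 CPM, and those of KO at 3747, 2028, 2964, 2248 and 2853 CPM. The C247S KI libraries spread around the WT range on both sides: 3 lay above all 5 WT libraries and 2 below. Group means were 2644 ± 287, 3006 ± 1132 and 2768 ± 675 CPM (SD, n = 5). The log2 difference was 0.19 in C247S KI against WT (95% interval -0.31 to 0.68, edgeR adjusted p = 0.812) and 0.07 in KO against WT (-0.43 to 0.56, edgeR adjusted p = 0.898).

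Otc (ENSMUSG00000031173, chromosome X, 10252305 to 10321024), the mitochondrial transcarbamylase, was at 513, 311, 324, 405 and 259 CPM in WT. The C247S KI libraries were at 305, 299, 240, 371 and 213 CPM and the KO libraries at 387, 334, 320, 399 and 324 CPM. C247S KI 3 and C247S KI 5 were below all others, and the KO libraries lay inside the WT range. Its log2 difference was -0.34 in C247S KI against WT (95% interval -0.72 to 0.04, edgeR adjusted p = 0.551), -0.04 in KO against WT (-0.42 to 0.34) and 0.30 in KO against C247S KI (-0.07 to 0.68, edgeR adjusted p = 0.285). Leaving out WT 1, C247S KI 3 and C247S KI 5 together moved the first of these to 0.01 and the last to 0.112. For Otc, WT 1 was the highest WT library and C247S KI 3 and C247S KI 5 the lowest of theirs. The direction of these moves therefore follows from the choice of libraries.

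Ass1 (ENSMUSG00000076441, chromosome 2, 31470207 to 31520672), which joins citrulline and aspartate, was the most abundant of the 10 enzymes. WT libraries held 5955, 2971, 4348, 4092 and 2899 CPM, those of C247S KI 4150, 3522, 2748, 5133 and 1988, and those of KO 5241, 3059, 2961, 4111 and 3757. The ratio of the highest to the lowest library of a group was 2.05 for WT, 2.58 for C247S KI and 1.77 for KO, so libraries of the same genotype differed more than the genotypes did. The log2 difference was -0.21 for C247S KI against WT, -0.08 for KO against WT and 0.13 for KO against C247S KI (edgeR adjusted p = 0.806, 0.878 and 0.787). Leaving WT 1, C247S KI 3 and C247S KI 5 out together gave 0.263, 0.101 and -0.162, all of the opposite sign and not called. As for Otc, these were the highest WT and the lowest C247S KI libraries, so the direction of the moves follows from the choice.

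Asl (ENSMUSG00000025533, chromosome 5, 130011258 to 130029247), which splits argininosuccinate, averaged 823 ± 142 CPM in WT libraries, 863 ± 245 in those of C247S KI and 896 ± 137 in those of KO (SD, n = 5). The 3 log2 differences lay between 0.05 and 0.12. Arg1 (ENSMUSG00000019987, chromosome 10, 24915221 to 24927484), the liver arginase, averaged 1345 ± 416, 1356 ± 296 and 1117 ± 140 CPM. Its 5 KO libraries, 1000 to 1299 CPM, all lay within the WT range of 979 to 2013. The log2 difference of Arg1 was -0.27 in KO against WT (95% interval -0.69 to 0.15, edgeR adjusted p = 0.452) and -0.28 in KO against C247S KI (-0.70 to 0.14, edgeR adjusted p = 0.381). The first was -0.07 without WT 1, and the second -0.182 without C247S KI 4. Over the cycle's enzymes and comparisons the 95% intervals reached from -0.75 to 0.68 on the log2 scale, so a p above the threshold does not show equal levels.

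Sds (ENSMUSG00000029597, chromosome 5, 120476526 to 120483932), the serine dehydratase, had the largest log2 differences of the set. WT libraries held 605, 369, 800, 491 and 419 CPM, C247S KI libraries 664, 383, 500, 612 and 363 CPM, and KO libraries 440, 225, 311, 360 and 301 CPM. Of the 5 KO libraries 4 were below every WT library and below every C247S KI library, and KO 1 was the exception. Means were 537 ± 172, 504 ± 134 and 327 ± 79.3 CPM (SD, n = 5). The log2 difference was -0.71 in KO against WT (SE 0.23, 95% interval -1.20 to -0.23, unadjusted p = 0.00626, edgeR adjusted p = 0.068). In KO against C247S KI it was -0.62 (SE 0.23, -1.11 to -0.14, unadjusted p = 0.0143, edgeR adjusted p = 0.0912). In C247S KI against WT it was -0.09 (-0.57 to 0.39, edgeR adjusted p = 0.91).

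Sds was called in KO against WT with DESeq2 (adjusted p = 0.0267), while over all settings tried its adjusted p ran from 0.0176 to 0.757. The clock index, the mean log2 CPM of 5 clock genes, among them Dbp, less that of 3 others, among them Arntl, was 2.88 to 3.71 in KO libraries, against 1.48 to 2.75 in WT and 0.46 to 2.18 in C247S KI. The KO libraries thus did not overlap the others in it, and genotype and clock phase cannot be told apart. With that index as a covariate the log2 difference of Sds was -0.25 in KO against WT and 0.038 in KO against C247S KI.

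Hal (ENSMUSG00000020017, chromosome 10, 93488768 to 93519304), the histidine ammonia lyase, had its highest mean in WT livers (289 ± 45.9 CPM), with 216 ± 56.8 in C247S KI and 245 ± 16.9 in KO livers (SD, n = 5). The WT libraries were at 366, 246, 291, 277 and 266 CPM, the C247S KI libraries at 268, 222, 199, 262 and 128, and the KO libraries at 273, 242, 226, 240 and 245. Below every WT library lay 3 of 5 C247S KI libraries and 4 of 5 KO libraries, and C247S KI 5 was far below the rest. The log2 difference was -0.42 in C247S KI against WT (SE 0.17, 95% interval -0.78 to -0.07, unadjusted p = 0.0218, edgeR adjusted p = 0.445), and leaving out single libraries gave -0.504 to -0.278, the smallest without C247S KI 5. Leaving WT 1, C247S KI 3 and C247S KI 5 out together, its highest WT and lowest C247S KI libraries, took it to -0.10 (edgeR adjusted p = 0.769). Its difference in KO against WT was -0.24 (-0.59 to 0.12, edgeR adjusted p = 0.425), and -0.129 without WT 1. Hal in KO was the most even of the enzymes, with the highest library 1.21 times the lowest.

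Tdo2 (ENSMUSG00000028011, chromosome 3, 81957090 to 81976202), the tryptophan dioxygenase, was at 3075, 1815, 2479, 2606 and 1526 CPM in WT. C247S KI libraries held 2260, 1712, 1684, 2426 and 1477 CPM and KO libraries 1977, 1536, 1751, 1723 and 1811 CPM. The 5 KO libraries were close together at the lower end of the WT range. The difference in KO against WT was -0.39 on the log2 scale (95% interval -0.79 to 0.02, unadjusted p = 0.0589, edgeR adjusted p = 0.236), and -0.252 without WT 1.

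Tat (ENSMUSG00000001670, chromosome 8, 109990437 to 109999803), the tyrosine aminotransferase and a classical glucocorticoid target, varied most of the 10 enzymes within the C247S KI and KO groups. WT libraries held 2505, 1773, 2207, 2067 and 1756 CPM, C247S KI libraries 4132, 2441, 1509, 3398 and 1410, and KO libraries 3413, 960, 3107, 2069 and 3194. The ratio of the highest to the lowest library was 1.43 for WT, 2.93 for C247S KI and 3.56 for KO. The difference in spread was not tested. The log2 differences of 0.32 in C247S KI and 0.31 in KO against WT had 95% intervals of -0.36 to 1.0 and -0.38 to 0.99. Single libraries moved both: the first was 0.097 when C247S KI 1 was left out, 0.208 when C247S KI 4 was and 0.485 when C247S KI 5 was, with 0.775 when WT 1, C247S KI 3 and C247S KI 5 were left out together. The second was 0.193 without KO 1, 0.222 without KO 5 and 0.531 without KO 2. Gls2 (ENSMUSG00000044005, chromosome 10, 128194457 to 128210004), the liver glutaminase, averaged 381 ± 102 CPM in WT livers, 350 ± 121 in C247S KI livers and 388 ± 92.0 in KO livers (SD, n = 5), and its log2 differences were -0.12, 0.03 and 0.15 in the order used for Ass1.

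**Figure D2:**
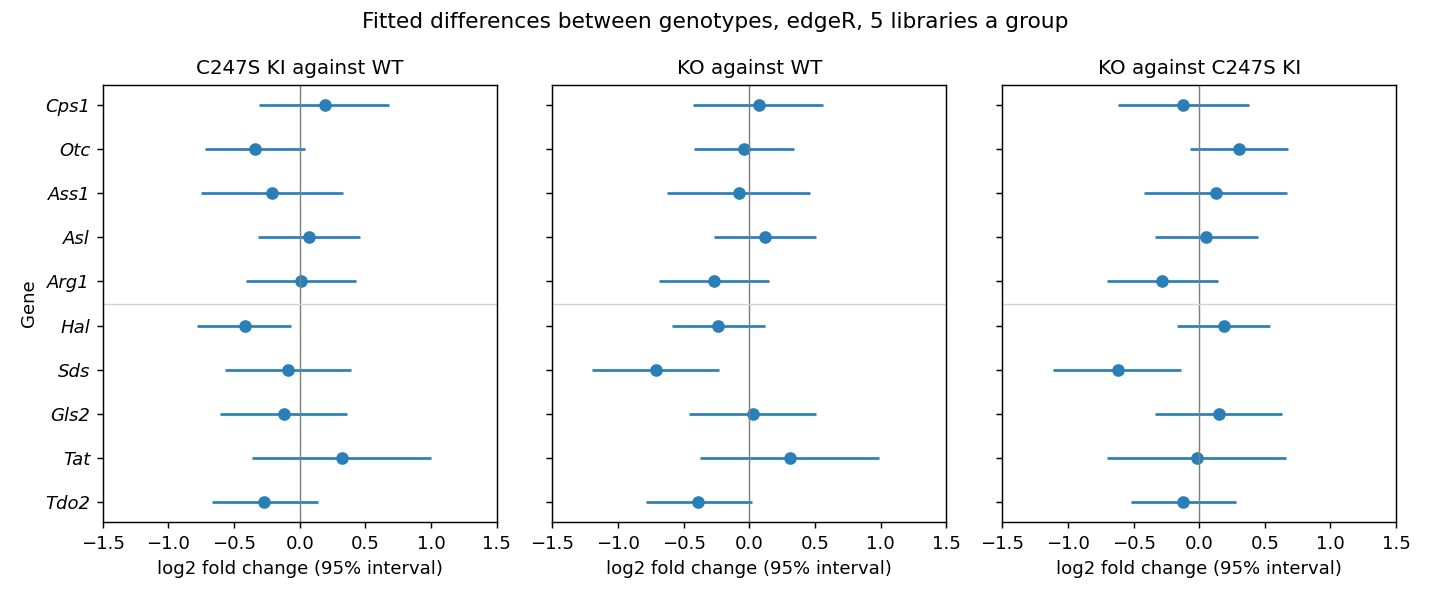
Fitted log2 fold change (horizontal axes) with its 95% interval for each enzyme in the 3 comparisons; points are edgeR estimates over 5 libraries a group. Intervals that leave out 0 belong to Hal in the first panel (-0.42) and to Sds in the other 2 (-0.71 and -0.62), none of which passed after adjustment over all genes.

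For most of the enzymes the share of variance between the groups was below the median of all tested genes. Some of such a share arises between any 3 groups by chance, and the shares were not tested. The share of variance in log2 CPM that lay between the 3 groups was 1.32% for Cps1, 2.81% for Tat, 3.60% for Asl, 5.02% for Gls2 and 5.78% for Ass1. It was 13.6% for Arg1, 22.1% for Tdo2, 25.1% for Otc, 34.8% for Hal and 43.2% for Sds, beside a median of 23.2% over all tested genes.

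Within groups the enzymes varied together from library to library. WT 1 was the highest WT library for 8 of 10 enzymes, C247S KI 4 the highest of its group for 7 and KO 1 the highest KO library for 9. C247S KI 5 was the lowest of its group for 9 and the lowest of all 15 libraries for 7. Its TMM factor was 1.25, the highest of the 15, and with CPM from total counts alone it was lowest for 2 enzymes and C247S KI 3 for 5. C247S KI 5 also had the highest summed cholangiocyte markers (5 of 5 measured), 121 CPM against 46.5 to 65.7 in the other C247S KI libraries, 34.7 to 53.3 in those of WT and 25.5 to 38 in those of KO. The part of that cell type in the low values was not tested.

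**Figure D3:**
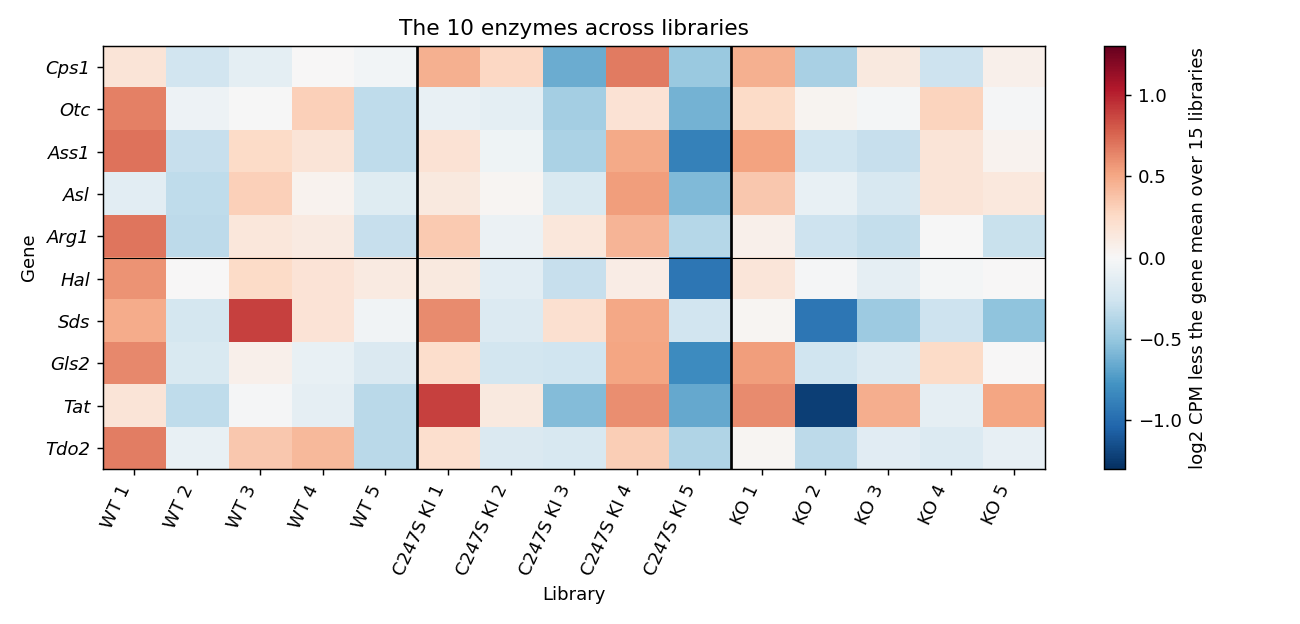
Log2 CPM of each enzyme (rows) less its mean over 15 libraries, in colour, by library (columns, grouped by genotype). Columns of 1 colour are libraries in which most enzymes were high (WT 1, C247S KI 4, KO 1) or low (C247S KI 5), and the Sds row is at or below about 0 in all KO libraries.

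Across the 15 libraries all 45 pairs of enzymes were positively correlated in log2 CPM, with Pearson's r from 0.20 to 0.95 and a median of 0.62. After the group means were subtracted, r ran from 0.49 to 0.96 with a median of 0.74. With p-values from 100000 permutations adjusted over the 45 pairs, 26 pairs passed 0.05 by Pearson's r and 28 by Spearman's rho. Each pair was also taken without the 2 libraries farthest from the median of its first enzyme, in the order listed at the start. Of those 26 pairs, 17 kept an unadjusted p under 0.05 and 9 did not. With fewer libraries and a narrower range r falls in any case, so this does not show that the 9 rest on those libraries. All 45 stayed positive without C247S KI 5 (median 0.59), over the 12 libraries left without WT 1, C247S KI 3 and C247S KI 5 (median 0.56), and with CPM from total counts without TMM factors (median 0.62).

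Ass1 and Gls2 formed the closest pair (r = 0.95, permutation p = 1e-05, the smallest that 100000 permutations give, adjusted p = 0.00045; rho = 0.92, permutation p = 1e-05, adjusted p = 0.00045), with r = 0.91 without the 2 farthest libraries. Cps1 went closely with Tat (r = 0.86, permutation p = 4e-05, adjusted p = 0.0006; rho = 0.89, permutation p = 2e-05, adjusted p = 0.00045), with r = 0.87 without the 2 farthest. Otc went with Ass1 (r = 0.87, permutation p = 6e-05, adjusted p = 0.00067; rho = 0.78, permutation p = 0.00073, adjusted p = 0.0058), and r was 0.72 without the 2 farthest. Hal also went with Ass1 (r = 0.83, permutation p = 3e-05, adjusted p = 0.0006; rho = 0.75, permutation p = 0.0018, adjusted p = 0.0078), with r = 0.64 without the 2 farthest. Otc and Hal had r = 0.79 (permutation p = 0.00054, adjusted p = 0.0026) and rho = 0.62 (permutation p = 0.015, adjusted p = 0.034), and r was 0.49 without the 2 farthest (unadjusted permutation p = 0.086), so that relation is less firm. The loosest pair was Otc and Sds (r = 0.20, permutation p = 0.48, adjusted p = 0.48; rho = 0.11, permutation p = 0.71, adjusted p = 0.71), at -0.03 without the 2 farthest.

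Against the mean log2 CPM of the 5 cycle enzymes, r was 0.94 for Gls2, 0.80 for Tdo2, 0.78 for Hal, 0.69 for Tat and 0.55 for Sds over the 15 libraries. Of the other 13906 genes tested, 7.09% had r above 0.5 with that mean, and their median was -0.02. The genes most like the cycle enzymes were Adk (adenosine kinase, r = 0.938), Ahcy (adenosylhomocysteinase, 0.934) and Cth (cystathionine gamma-lyase, 0.911). Most like the mean of the catabolic enzymes were Cth (0.947), Slc25a15 (the mitochondrial ornithine carrier, 0.905) and Gpat4 (a glycerol-3-phosphate acyltransferase, 0.884). These are descriptions over libraries that share their depth and scaling.

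Other genes of the pathways were largely not called. In C247S KI against WT 0 genes passed in each list of urea cycle support (20 tested), histidine, serine and threonine catabolism (12), tyrosine and phenylalanine catabolism (7), the tryptophan to nicotinamide pathway (11) and methionine and other amino acid catabolism (18). The list medians of the log2 difference were -0.02, -0.05, -0.20, -0.07 and -0.12, beside 0.002 for all genes tested. The lowest p among them belonged to Amdhd1, which acts after Hal in histidine breakdown, at 179 ± 34.8 CPM in WT and 122 ± 32.6 in C247S KI (SD, n = 5), a log2 difference of -0.55 (edgeR adjusted p = 0.323) that was -0.194 when WT 1, C247S KI 3 and C247S KI 5 were left out together.

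In KO against WT the same 5 lists also had 0 genes called, with medians of -0.07, -0.01, 0.02, 0.05 and 0.11 beside -0.01 for all genes. Uroc1, the urocanase that follows Hal, was at 496 ± 22.8 CPM in WT and 376 ± 55.1 in KO (SD, n = 5; -0.40, edgeR adjusted p = 0.0701). Car5a, the mitochondrial carbonic anhydrase that supplies bicarbonate to Cps1, was at 99.7 ± 8.15 and 129 ± 12.6 CPM (0.38, edgeR adjusted p = 0.0757). Both passed with DESeq2 (adjusted p = 0.0245 and 0.0437).

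In KO against C247S KI, Car5a rose by 0.66 on the log2 scale (82.2 ± 15.2 to 129 ± 12.6 CPM, SD, n = 5, edgeR adjusted p = 0.00343) and Prodh2, which degrades hydroxyproline, by 0.53 (201 ± 20.8 to 291 ± 10.7 CPM, edgeR adjusted p = 0.0064). Both kept their call when any 1 library was left out. In all, 2 of 20 support genes were called higher, 1 of 12 histidine, serine and threonine genes lower, and 4 of 18 methionine and other genes higher, against 4.41% of all genes higher and 5.85% lower. The calls of Aqp9, a glycerol and urea channel (0.48), Sdsl, a relative of Sds (-0.85), Bckdk (0.47) and Bckdha (0.43) were less firm. None of these 4 passed without KO 2 (edgeR adjusted p = 0.0554 to 0.114) or without C247S KI 1 (edgeR adjusted p = 0.0503 to 0.107), and 1 or more of the 4 calls were lost without any other KO or C247S KI library but C247S KI 3, at up to 0.115 for Bckdha without KO 4. Over the 12 libraries without WT 1, C247S KI 3 and C247S KI 5, 1 support gene was higher and 4 were lower. The share of all genes called over those 12 is not given, so these counts are not read as a trait of the list. With the clock index none of these genes passed, in a fit that called far fewer of all genes (given further on).

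Other zonation genes gave more calls in KO livers. Of 12 other periportal genes 5 were lower and 0 higher in KO against WT, beside 4.19% of all genes lower, with a list median of -0.35. The list did not go 1 way: 5 of the 12 had a positive log2 difference, none of them called, beside 48.7% of all genes. Ctsc, the protease cathepsin C, fell to 26.9 ± 1.73 from 55.1 ± 5.81 CPM (SD, n = 5; -1.03, SE 0.13, edgeR adjusted p = 0.000333). The log2 difference of Hsd17b13, a lipid droplet protein, was -1.06 (SE 0.15, edgeR adjusted p = 0.000995), and Apoa4, an apolipoprotein, fell to 259 ± 129 from 2068 ± 863 CPM (edgeR adjusted p = 0.000549). Of the 10 enzymes, most of which are known as periportal too, 0 passed, and the difference between these lists was not tested. Of 12 pericentral genes 3 were higher and 0 lower beside 2.56% of all genes higher, with a median of 0.58, among them the glutamate transporter Slc1a2 (0.70, edgeR adjusted p = 0.00575) and Rnf43, a target and inhibitor of Wnt signalling (0.96, edgeR adjusted p = 0.00888). The third, Gulo (0.56, edgeR adjusted p = 0.0478), lost its call without any 1 of the 10 KO and WT libraries, at up to 0.112 without KO 2.

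Against C247S KI the counts were 5 of 12 periportal genes lower beside 5.85% of all genes, with a median of -0.41, and 5 of 12 pericentral genes higher beside 4.41%, with a median of 0.53. In that comparison 3 of 12 periportal and 10 of 12 pericentral genes had a positive log2 difference. Cyp1a2, a cytochrome P450, rose by 1.33 (edgeR adjusted p = 0.00236). Between C247S KI and WT livers 0 of 12 passed in either list. With the clock index as a covariate 1 periportal gene, Ctsc, was lower in each of the KO comparisons, and the pericentral genes higher numbered 1 against WT and 0 against C247S KI. Far fewer of all genes were called with the index as well (given further on), so this drop is not read as a trait of zonation genes. Beside these zonation counts stand the lower summed hepatocyte markers of KO livers given above. Of the 6 tested, 1 was called lower against WT, albumin, Alb (-0.80, edgeR adjusted p = 0.0294). The list median was -0.22, and 1 of the 6 had a positive difference. Against C247S KI 3 of 6 were called lower, with a median of -0.46. Markers of some other cell types differed in KO libraries too. Stellate cell markers (6 of 6 measured) summed to 138 to 362 CPM in KO libraries, 385 to 453 in WT and 278 to 443 in C247S KI. Adipocyte markers (4 of 4 measured) summed to 7.66 to 11.3 CPM in KO, below the 18.4 to 32.3 of WT and the 16.7 to 33 of C247S KI with no overlap. Only 1 of these 4, Fabp4, had enough counts to be tested (-1.40 in KO against WT, edgeR adjusted p = 0.000333). The sum therefore does not show that the 4 markers fell together. Cholangiocyte sums in KO, given above, lay below all those of C247S KI and overlapped those of WT. Of the single markers, 2 of 8 Kupffer cell and macrophage, 2 of 5 sinusoidal endothelial, 1 of 6 stellate and 1 of 4 tested lymphocyte markers were called lower in KO than in WT and 0 higher, beside 4.19% of all genes lower. The Kupffer cell (83.4 to 311 CPM) and endothelial sums (101 to 161) of KO overlapped those of WT (127 to 345 and 85.2 to 195). The endothelial markers did not go 1 way: 3 of 5 had a positive log2 difference against WT, with a median of 0.03. Against C247S KI 6 of 8 Kupffer cell markers (median 0.43) and 3 of 5 endothelial markers (0.45) had a positive difference, with 1 of each list called lower and 0 higher. The part of these cell types in the counts was not tested.

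**Figure D4:**
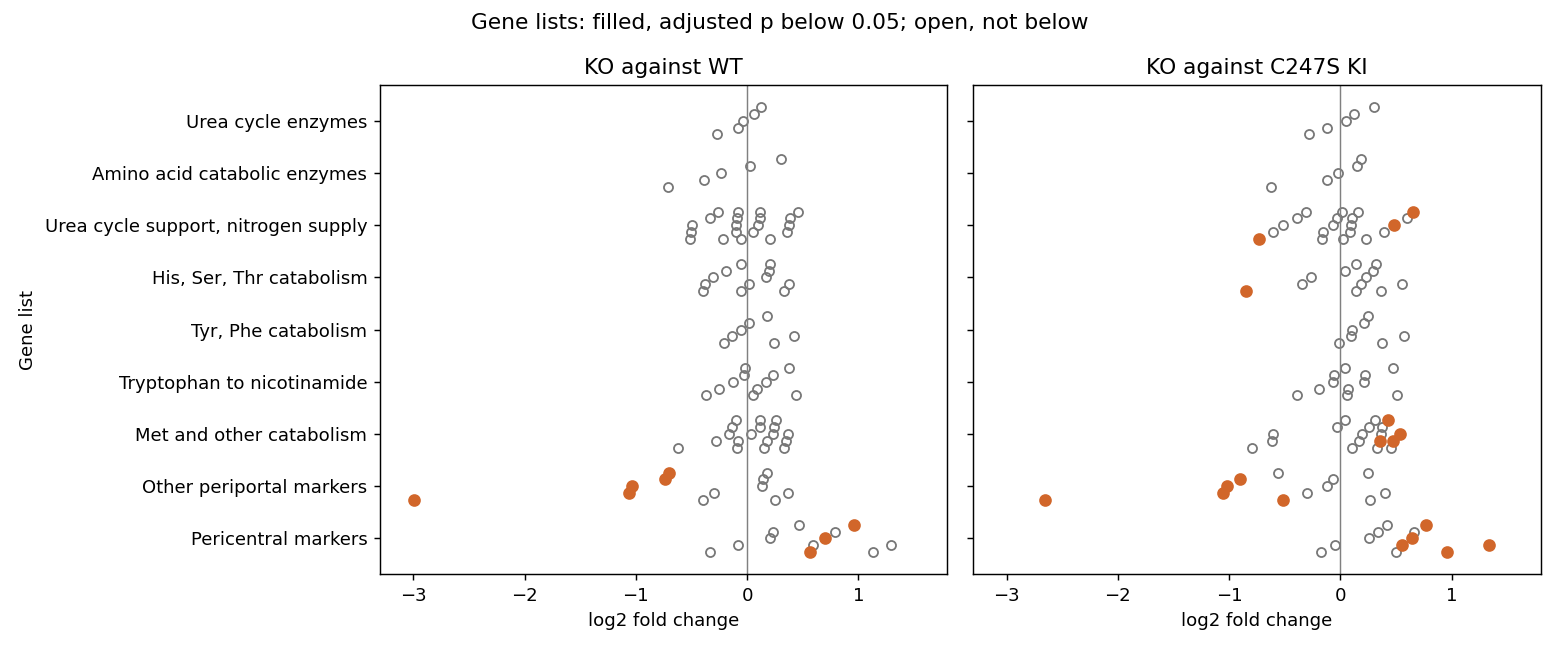
Log2 fold change (horizontal axes) of each tested gene in 9 gene lists (vertical axis) for KO against WT and KO against C247S KI; filled points passed an edgeR adjusted p below 0.05. No filled point lies in the rows of the urea cycle enzymes or the amino acid catabolic enzymes, and 5 lie below 0 in the row of other periportal markers in each panel.

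Among 22 regulators of these enzymes and their known targets, 0 passed in C247S KI against WT and 2 were lower in KO against WT, where 4.19% of all genes were lower. Igfbp1, a target of glucagon and insulin signalling, fell from 219 ± 62.0 to 95 ± 31.7 CPM (SD, n = 5; -1.20, edgeR adjusted p = 0.0142), and its value with the clock index was -0.639 (edgeR adjusted p = 0.435). Sgk1, a glucocorticoid target like Tat, had -0.68 (edgeR adjusted p = 0.046), and its call was lost without WT 1, 2, 3 or 5 and without KO 1, 2, 4 or 5, at up to 0.127 without KO 2. In KO against C247S KI the difference of Igfbp1 was -2.04 (edgeR adjusted p = 0.000321), with 1 regulator higher and 3 lower in all, beside 4.41% and 5.85% of all genes.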

How the data were processed

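Per the submitters' processing notes, the authors trimmed reads with Trimmomatic 0.39 and deposited estimated counts per transcript, as whole numbers, from kallisto 0.50.1, with DESeq2 and mm10 also named. Which transcripts were indexed is not stated in those notes or in the labels. An estimate of this kind divides reads that match several transcripts among them. Identifiers were matched without version to GENCODE release M21 (GRCm38): 114331 of 115911 transcripts matched (98.64%), and the 1580 others, 0.366% to 0.459% of a library's counts, were left out of library sizes and tests. Counts were summed to 35540 symbols.

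Genes were kept by filterByExpr (minimum count 10, minimum total count 15), which left 13916. A group-means fit of all 15 libraries used TMM factors and the quasi-likelihood test of edgeR 4.0.16 in R 4.3.3, with Benjamini-Hochberg adjusted p below 0.05 over all genes as the threshold. Log2 CPM used a prior count of 2. The alternatives changed the test (DESeq2 1.42.0, or voom of limma 3.58.1), the size factors (RLE, upper-quartile), the filter (none, or 50 counts on average), the libraries fitted (those of the 2 groups only) or the design (the replicate number as a block). Others took protein-coding transcripts only, left out each library in turn, left out WT 1, C247S KI 3 and C247S KI 5 together, or added a clock index as a covariate. In mean rank over the 10 enzymes, WT 1 was the highest of WT (12.9) and C247S KI 3 and C247S KI 5 the lowest of theirs (4.3 and 1.6). Leaving them out together therefore tends to raise the enzymes in C247S KI against WT, and such moves are no independent check. Gene list counts under these settings, and correlations without TMM factors, were added after seeing the data. The procedure was tested on simulated counts.

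The members and lists were chosen with earlier results of these data known, the libraries left out together and the clock index included. Beside the 10 enzymes, Txnip and markers, the rule for named genes took up to 3 called genes with the lowest p from each pathway list, or the 1 with the lowest p where none was called, and the 3 genes most correlated with the mean of each enzyme set, leaving out predicted gene models. Some genes that this rule allows are given by count only. The result of 1 gene of the urea cycle support list is not reported here. No library was a copy of another: over the 30 pairs within groups, chi-square over its degrees of freedom was 23 to 372.1. Correlations used two-sided permutation tests in Python 3.11.15 with scipy 1.17.1, and figures matplotlib 3.10.9.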

Additional observations from a re-analysis of the deposited data

Results flagged for a closer look

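Gls2, the liver glutaminase, was at 557 CPM in WT 1, and the next WT library, WT 3, was at 379 CPM. The gap was 0.734 of the range of the 5 WT libraries, which is past the 95% critical value of Dixon's test for 5 samples. It was the 1 such value among 30 tests of 10 enzymes in 3 groups, and chance alone flags about 1 in 20 such groups. In WT 1 a total of 8 of the 10 enzymes were at the highest level of the WT group.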

How the results depend on the processing

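In C247S KI against WT 0 of 210 enzyme values over all alternatives were called, in KO against WT 2 and in KO against C247S KI 1, all of them Sds. DESeq2 called 1 enzyme lower in KO against WT. Genes called numbered 12 in C247S KI against WT, and 20 with no count filter, 65 with DESeq2, 29 with the clock index and 6 with only the 2 groups. Leaving out each library gave 4 (without WT 3) to 24 (without C247S KI 4), with 5 without WT 4 and 7 without C247S KI 1. In KO against WT the 939 became 1505 with DESeq2, 1542 without WT 1, C247S KI 3 and C247S KI 5 together, and 94 with the clock index. Single libraries left out gave 521 (without KO 2) to 928, also 523 without WT 4, 571 without KO 3, 611 without KO 4 and 546 without KO 5. In KO against C247S KI the 1427 became 88 with the clock index, and 784 (without KO 2) to 2272 (without C247S KI 3), with 787 to 948 without KO 3, KO 4, KO 5, C247S KI 1 or C247S KI 5. The cause of these moves was not tested.

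Signs of uncalled enzyme differences turned in several fits. Without WT 1, C247S KI 3 and C247S KI 5, C247S KI against WT gave 0.01 for Otc, 0.263 for Ass1, 0.098 for Sds, 0.306 for Gls2 and 0.025 for Tdo2. KO against WT gave 0.122 for Otc and 0.101 for Ass1, and KO against C247S KI gave -0.162 for Ass1, -0.167 for Asl, -0.035 for Hal and -0.101 for Gls2. The libraries left out were the highest of WT and the lowest of C247S KI in mean rank over the enzymes. The direction of these turns thus follows from the choice of libraries. The clock index gave -0.02 for Cps1, -0.162 for Asl and -0.078 for Arg1 in C247S KI against WT, and 0.119 for Otc and 0.273 for Ass1 in KO against WT. In KO against C247S KI it gave 0.431 for Cps1, 0.038 for Sds, 0.486 for Tat and 0.222 for Tdo2, and among clock genes -0.35 for Nr1d1 and 0.129 for Cry1, which are part of that index. Protein-coding transcripts alone gave -0.069 for Gls2 in KO against WT. Leaving out single libraries gave ranges across 0 in C247S KI against WT for Asl (-0.092 to 0.189), Arg1 (-0.075 to 0.211), Sds (-0.204 to 0.106) and Gls2 (-0.299 to 0.064). In KO against WT they were Cps1 (-0.055 to 0.175), Otc (-0.125 to 0.127), Ass1 (-0.215 to 0.105) and Gls2 (-0.101 to 0.211), and in KO against C247S KI Cps1 (-0.269 to 0.06), Ass1 (-0.028 to 0.309), Asl (-0.067 to 0.223) and Tat (-0.173 to 0.223). RLE and upper-quartile factors moved the median of all genes by at most 0.006.

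The replicate number as a block called 6 genes in C247S KI against WT and 1 enzyme lower in each KO comparison, Sds, at -0.702 (edgeR adjusted p = 0.0176) against WT and -0.617 (0.0226) against C247S KI. The labels do not say what a shared number means, so the numbers were not taken as pairs. Over all tested genes, deviations of same-numbered libraries correlated at -0.141 to 0.381. Differently numbered libraries were not correlated, so this range does not decide whether the numbers mark pairs. Mean rank over the 10 enzymes (WT, C247S KI, KO) was 12.9, 11.4 and 12.2 for number 1. For number 2 it was 5.3, 6.6 and 4.6, and for number 3, 11.1, 4.3 and 5.9. For number 4 it was 10.1, 12.8 and 8.1, and for number 5, 5.2, 1.6 and 7.9. A link of these ranks to the number was not tested.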
